A study of Mus musculus with 4 samples.

Results

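The subunits of the MLL3/MLL4 complex were examined in RNA-Seq of mouse brown preadipocytes, precursors of brown fat cells, before and during adipogenesis. The 8 genes are those of the proteins that join the methyltransferases MLL3 and MLL4, chosen by their place in the complex and not by any measured value, out of 22459 gene symbols in the deposited files. They are *Kdm6a* (UTX), *Ncoa6*, *Paxip1* (PTIP), *Pagr1a* (PA1), *Wdr5*, *Ash2l*, *Rbbp5* and *Dpy30*. All 8 were found in the files, and all 8 were among the 11857 expressed genes, defined as those with more than 1 RPKM (read count scaled to the exon length in kilobases and to the mapped reads of the library) in at least 1 library.

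MLL3 (*Kmt2c*) and MLL4 (*Kmt2d*) place methyl groups on lysine 4 of histone H3, largely the mono- and di-methylation that marks enhancers, the distant DNA elements that switch cell-type-specific genes on. WDR5, RBBP5, ASH2L and DPY30 form the core that all enzymes of this family need for activity, and so they also serve the MLL1, MLL2, SET1A and SET1B complexes. UTX, NCOA6, PTIP and PA1 are found with MLL3 and MLL4: UTX removes methyl groups from lysine 27 of histone H3, NCOA6 is a coactivator of nuclear receptors, and PTIP and PA1 bind each other and also act together in the response to DNA damage.

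The study asked what MLL4 does for gene expression during adipogenesis. All 4 libraries came from the same kind of cell, C57BL/6J brown preadipocytes of E18.5 embryos that were immortalized with SV40T, lacked MLL3 (*Mll3*-/-) and carried floxed *Mll4* alleles (*Mll4* f/f). Ad-GFP cells were infected with an adenovirus for green fluorescent protein and kept *Mll4*, whereas Ad-Cre cells were infected with an adenovirus for Cre recombinase and are labelled *Mll3*-/-*Mll4*-/-. Although the labels also call the Ad-GFP cells wild type, none of these cells had MLL3, so no library shows the complex with both enzymes. Each kind of cell was sampled at day 0, 2 days after confluence, and at day 2 of differentiation in insulin, T3, indomethacin, dexamethasone and IBMX. Every condition has 1 library, with no replicate, and so no test between conditions was run and no p-value is given. The 95% intervals below are exact (Clopper-Pearson for ratios, Poisson for levels), except those of differences between 2 log2 ratios. The latter are approximate (Wald, from the Poisson errors of the 4 counts). All intervals take in no error other than that of counting reads, and set single libraries side by side rather than conditions.

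The libraries held between 17198448 and 22986362 mapped reads, and 3 reads over 1 kb of exon equal 0.131 to 0.174 RPKM. With these totals the median log2 ratio of all expressed genes was 0.14 between the days with Ad-GFP and -0.14 for Ad-Cre/Ad-GFP at day 2, against -0.01 and 0.02 with TMM factors, a second way to scale libraries, so a subunit within such a distance of 0 has no settled direction. *Kmt2d* itself had 18.5 and 18.7 RPKM in the Ad-GFP libraries of day 0 and day 2 and 16.3 and 15.6 RPKM in those of Ad-Cre, but a count over the whole transcript cannot show whether the few floxed exons were lost. For the deletion, the paper shows a browser view of RNA-Seq over the targeted exons. It also reports that the MLL4 complex was disrupted in such cells. The 6 fat cell markers examined summed to 30.4 RPKM (Ad-GFP) and 15.7 RPKM (Ad-Cre) at day 0, and to 1999 and 490 RPKM at day 2. All 6 passed 2.5-fold upward between the days in both kinds of cells, and all 6 passed it downward between Ad-Cre and Ad-GFP at day 2. In bulk RNA, fewer fat cells and less of these RNAs per cell cannot be told apart. Of 5 brown fat markers, *Prdm16* alone was expressed, with *Ucp1* at 1 read or fewer and *Cidea* at 0 reads in every library. The 6 preadipocyte markers summed to 197 and 139 RPKM at day 0 and to 75.5 and 64.8 RPKM at day 2 (Ad-GFP, Ad-Cre), and 4 of them were over 2.5-fold lower with Ad-Cre at day 0. None of the 8 immune, endothelial, muscle and epithelial markers found in the files passed 4 reads in a library.

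In the Ad-Cre library of day 2, the ratios of genes depended on the length and GC content of their transcripts. The median Ad-Cre/Ad-GFP log2 ratio at day 2 went from 0.51 in the tenth of expressed genes with the shortest exons to -0.73 in the tenth with the longest, and from -0.68 in the tenth with the lowest GC content to 0.68 in the tenth with the highest. At day 0 the same medians went from -0.18 to 0.00 over length and from 0.09 to 0.03 over GC content. The step from day 0 to day 2 in Ad-GFP cells had a smaller trend over GC content, from 0.34 to -0.11, and was level over length, at 0.12 for both the shortest and the longest exons. The subunits cover much of both scales, from the 710 bases of *Dpy30* to the 6872 bases of *Ncoa6* and from the 43.9% GC of *Kdm6a* to the 58.9% GC of *Pagr1a*. Each subunit ratio that uses this library is therefore also given after division by the median trend that both properties showed among expressed genes. Division over length alone had been planned, whereas the joint division used here was added after the data were seen, and whether the trends arose in the library preparation or in the cells was not tested.

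**Figure D1:**
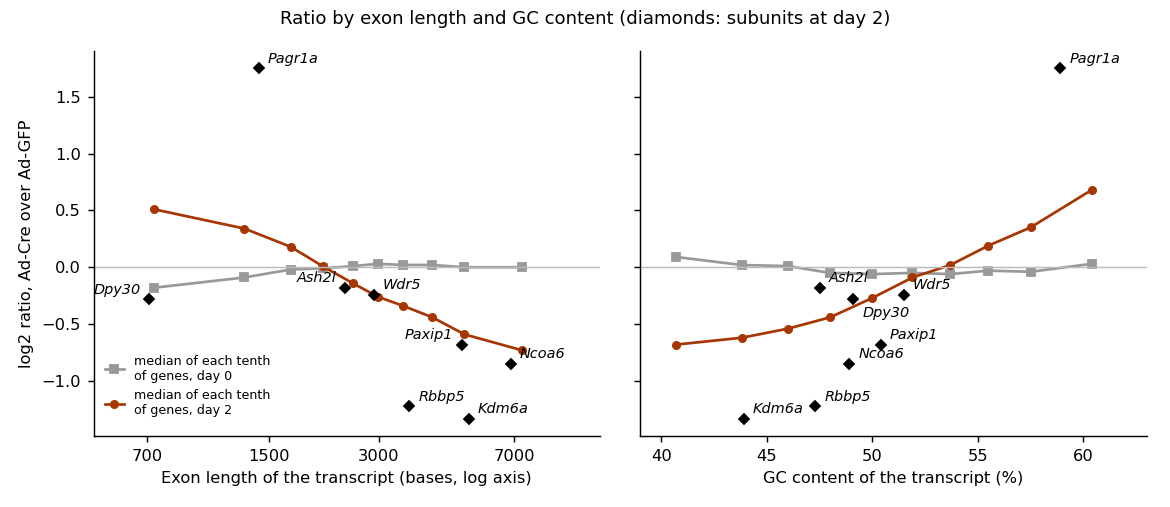
Log2 ratio Ad-Cre/Ad-GFP against the exon length (left, bases, log axis) and the GC content (right, %) of the transcript. Lines join the medians of 10 equal groups of expressed genes at day 0 (grey squares) and day 2 (brown circles), and black diamonds are the 8 subunits at day 2. The day 2 medians run from 0.51 to -0.73 over length and from -0.68 to 0.68 over GC content, while those of day 0 lie between -0.18 and 0.09. *Kdm6a*, *Rbbp5*, *Ncoa6* and *Paxip1* lie below and *Pagr1a* above both day 2 lines.

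On NCBI37/mm9, *Kdm6a* has 28 exons at chrX:17739701-17857062 (plus strand), and *Rbbp5* has 14 exons at chr1:134373944-134402242 (plus strand). On the minus strand lie *Ncoa6* (chr2:155216401-155299630), *Paxip1* (chr5:28067207-28117879) and *Pagr1a* (chromosome 7), whose exons after the RefSeq start run from 134158547 to 134160866. *Wdr5* (chromosome 2), *Ash2l* (chromosome 8) and *Dpy30* (chromosome 17) complete the set.

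Reads of the subunits could also come from copies elsewhere in the genome. Windows of 50 bases, the length of the reads, were taken every 10 bases from each transcript and matched to NCBI37/mm9 with up to 2 mismatches. In 7 of the 8 genes between 0 and 9.33% of the windows matched elsewhere, with 0 of 139 windows in *Pagr1a* and 3 of 506 in *Kdm6a*, the latter on chromosome Y, which carries its paralog *Uty*. *Uty* had 0 reads in all 4 libraries. In *Rbbp5*, 156 of 359 windows (43.5%) matched a copy on chromosome 11 between 6680588 and 6683222, and 38 windows (10.6%) had a match elsewhere without a mismatch. One coding window, bases 901 to 950 of the *Rbbp5* transcript, is printed with its copy to show how close they are, with the bases that differ in capitals.
Rbbp5, chr1:134390604-134390653, plus strand: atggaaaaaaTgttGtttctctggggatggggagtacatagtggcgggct
copy, chr11:6682332-6682381, minus strand: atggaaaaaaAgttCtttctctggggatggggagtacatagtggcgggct
The 2 differ at 2 of the 50 bases. How reads with several matches were treated is not given in the sources used here, so the level of *Rbbp5* is less certain than that of the other subunits.

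*Pagr1a* has a different limit. Its annotation in GENCODE vM1, under the older name 2900092E17Rik on the minus strand of chromosome 7, shares 117 bases (8.18%) of its exons with *Prrt2* and 347 bases (24.3%) with the gene model Gm20418, both on the same strand, so that reads on these bases cannot be assigned. *Prrt2* had 196 reads with Ad-GFP and 239 with Ad-Cre at day 0, and 156 and 346 at day 2, against 598, 646, 541 and 1432 for *Pagr1a*. Even if every *Prrt2* read were also counted on *Pagr1a*, most *Pagr1a* reads in each library would not be among them. Reads of Gm20418 were not analysed here, so its larger share could not be bounded. The other 7 genes shared no exon bases with another annotated gene.

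In Ad-GFP cells at day 0, the subunits comprised 6 genes between 13.4 and 24.6 RPKM and a lower pair at 6.73 and 7.17 RPKM. *Pagr1a* was highest at 24.6 RPKM (598 reads, 95% interval 22.7 to 26.7), beside *Ash2l* at 24.2 RPKM (22.7 to 25.7). *Wdr5* followed at 18.0 RPKM, *Paxip1* at 15.6, *Ncoa6* at 15.4 and *Dpy30* at 13.4 RPKM, and *Rbbp5* and *Kdm6a* were lowest at 7.17 (6.52 to 7.87) and 6.73 RPKM (6.20 to 7.28). The intervals of *Pagr1a* and *Ash2l*, of *Paxip1* and *Ncoa6*, of *Ncoa6* and *Dpy30*, and of *Rbbp5* and *Kdm6a* overlap, so the order within these pairs cannot be read from these reads. *Wdr5* and *Paxip1* (16.9 to 19.2 against 14.8 to 16.5 RPKM) do not overlap, nor do *Ash2l* and *Wdr5* (22.7 to 25.7 against 16.9 to 19.2 RPKM). The median of the 8 was 15.5 RPKM, against 8.48 RPKM over all expressed genes, and the highest stood 3.66-fold above the lowest.

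The spread among the 8 genes was alike in all libraries but that of Ad-Cre at day 2. The fold between the highest and lowest subunit was 3.36 with Ad-GFP at day 2 and 3.53 with Ad-Cre at day 0, but 15.7 with Ad-Cre at day 2, where *Pagr1a* had 56.2 RPKM and *Kdm6a* 3.58 RPKM. The median of the 8 genes was 17.3, 16.8 and 13.4 RPKM in these 3 libraries. Over the 4 libraries *Pagr1a* had the widest range (3.37-fold), followed by *Kdm6a* (2.52-fold), *Rbbp5* (2.34-fold) and *Ncoa6* (1.94-fold). *Dpy30* (1.39-fold) and *Ash2l* (1.41-fold) had the narrowest. These spreads and ranges are from the deposited RPKM, with the length and GC trends of the Ad-Cre library of day 2 left in. With the trends divided out, the Ad-Cre/Ad-GFP log2 ratio of *Dpy30* at day 2 went from -0.28 to -0.74. Its narrow range therefore holds for the undivided levels only.

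**Figure D2:**
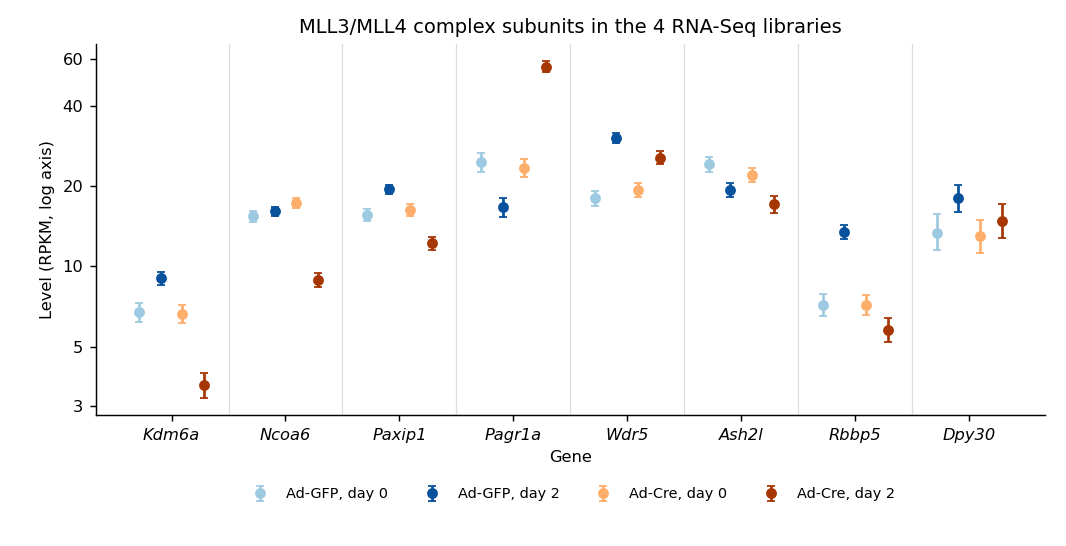
Level in RPKM (log axis) of each subunit in the 4 libraries, with exact Poisson 95% intervals of the read count. Blue marks Ad-GFP and orange Ad-Cre, in a light shade for day 0 and a dark one for day 2. The day 0 points of a gene lie close together, whereas the Ad-Cre point at day 2 is the highest of *Pagr1a* (56.2 RPKM) and the lowest of *Kdm6a* (3.58 RPKM), *Ncoa6*, *Paxip1*, *Ash2l* and *Rbbp5*.

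Whether the loss of MLL4 went with other levels of its partners in undifferentiated cells was read from Ad-Cre and Ad-GFP cells at day 0. There the 8 subunits were close to equal. Ad-Cre/Ad-GFP log2 ratios ran from -0.13 to 0.17 with a median of -0.01 (-0.02 over all expressed genes). Of the subunits, 4 were above and 4 below 0, against 5712 and 6128 of the expressed genes. None was past 2.5-fold, the cutoff of the study's methods, where 2.08% of expressed genes were past it upward and 4.17% downward. *Ncoa6* had 1826 reads (15.4 RPKM) with Ad-GFP and 2323 reads (17.3 RPKM) with Ad-Cre, a log2 ratio of 0.17 with an interval of 0.08 to 0.25. Its shorter transcript, with 806 and 940 reads, had a log2 ratio of 0.04. The interval of *Ash2l*, with 24.2 and 22.1 RPKM and a log2 ratio of -0.13, reached 0 (-0.26 to 0.00), and those of the other 6 held 0. *Kdm6a* had 609 and 682 reads (6.73 and 6.64 RPKM, log2 ratio -0.02, -0.18 to 0.14), *Pagr1a* 598 and 646 reads (24.6 and 23.4 RPKM, log2 ratio -0.07, -0.23 to 0.09) and *Rbbp5* 448 and 510 reads (7.17 and 7.20 RPKM, log2 ratio 0.00, -0.18 to 0.19). Of the 4 enzymes measured, *Kmt2d* (-0.18, -0.23 to -0.13) and *Kmt2c* (-0.36, -0.54 to -0.17) had log2 ratios below 0 in the same comparison. *Kmt2b* (0.08) and *Setd1a* (0.03) had ratios above 0. *Kmt2c* is the gene knocked out in every library, and *Kmt2d* the gene targeted by Cre.

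Differentiation of Ad-GFP cells went with modest shifts of the subunits. Of the 8 genes, 6 were above and 2 below their day 0 level at day 2, where 56.2% of expressed genes were above. The median log2 ratio was 0.37 (0.14 over all expressed genes), and none was past 2.5-fold, against 8.43% of expressed genes upward and 13.0% downward.

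Among the core subunits, *Rbbp5* and *Wdr5* were higher at day 2. *Rbbp5*, a scaffold of the core, went from 448 reads (7.17 RPKM) to 1129 reads (13.5 RPKM), a log2 ratio of 0.91 (0.76 to 1.08). *Wdr5*, which binds the enzymes and the histone tail, went from 899 reads (18.0 RPKM) to 2021 reads (30.3 RPKM), a log2 ratio of 0.75 (0.64 to 0.87). These were the largest shifts among the 8, and *Wdr5* became the subunit with the highest level. *Ash2l* was lower at day 2, with 1009 and 1080 reads in libraries of different depth (24.2 and 19.4 RPKM, log2 ratio -0.32, -0.45 to -0.20). *Dpy30*, the smallest of the core proteins, had 164 and 294 reads (13.4 and 18.0 RPKM), a log2 ratio of 0.42 with a wide interval of 0.14 to 0.71. The 4 core genes thus did not shift together in these libraries.

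Among the subunits found with MLL3 and MLL4, *Kdm6a* went from 6.73 to 9.02 RPKM (log2 ratio 0.42, 0.28 to 0.57) and *Paxip1* from 15.6 to 19.5 RPKM (log2 ratio 0.32, 0.22 to 0.41). *Ncoa6* had 15.4 and 16.1 RPKM, a log2 ratio of 0.06 whose interval (-0.03 to 0.14) holds 0 and which became -0.09 with TMM factors. *Pagr1a* went the other way, from 24.6 to 16.7 RPKM (598 and 541 reads), a log2 ratio of -0.56 (-0.73 to -0.39), which became -0.32 (-0.49 to -0.15) with the trends of this comparison divided out. The ratio of *Pagr1a* to *Paxip1* RPKM, whose proteins bind each other, was 1.57 at day 0 and 0.856 at day 2.

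In Ad-Cre cells the same step from day 0 to day 2 looked different. Here 5 of the 8 subunits were below and 3 above their day 0 level, where 50.2% of expressed genes were below, and the median log2 ratio was -0.34 (-0.01 over all expressed genes). None was past 2.5-fold, against 9.61% of expressed genes upward and 10.4% downward. *Ncoa6* went from 2323 reads (17.3 RPKM) to 1105 reads (8.92 RPKM), a log2 ratio of -0.96 (-1.06 to -0.85), and *Kdm6a* from 682 reads (6.64 RPKM) to 340 reads (3.58 RPKM), a log2 ratio of -0.89 (-1.08 to -0.70). *Pagr1a* went from 646 reads (23.4 RPKM) to 1432 reads (56.2 RPKM), a log2 ratio of 1.26 (1.13 to 1.40), short of the cutoff. *Paxip1* (-0.42), *Ash2l* (-0.37) and *Rbbp5* (-0.31) had smaller ratios below 0, *Wdr5* (0.40) and *Dpy30* (0.19) ratios above 0, and the interval of *Dpy30* (-0.11 to 0.49) holds 0.

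These ratios changed once the trends over length and GC content were divided out. The ratio of *Ncoa6* became -0.38 (-0.49 to -0.28), that of *Kdm6a* -0.27 (-0.46 to -0.08) and that of *Pagr1a* 0.48 (0.34 to 0.62). *Paxip1* and *Rbbp5* came to 0.03 and 0.08, with intervals that hold 0, and *Dpy30* turned from 0.19 to -0.57 (-0.87 to -0.27). *Wdr5* (0.48) and *Ash2l* (-0.31) stayed near their undivided ratios. After the division 4 subunits were above and 4 below 0, against 5417 and 5687 of the expressed genes. None was past 2.5-fold, against 6.38% of expressed genes upward and 9.31% downward.

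At day 2, Ad-Cre and Ad-GFP differed most in *Pagr1a*, *Kdm6a* and *Rbbp5*. Of the 8 subunits, 7 were lower and 1 higher with Ad-Cre, where 55.8% of expressed genes were lower. The median log2 ratio was -0.48 (-0.14 over all expressed genes). Past 2.5-fold were 1 subunit upward and 1 downward, against 9.59% and 9.88% of expressed genes. The fat cell markers were all lower in the same comparison (490 against 1999 RPKM in sum), and the preadipocyte markers summed to 64.8 and 75.5 RPKM. Most of that sum was *Pdgfrb* (41.9 and 39.3 RPKM), while *Ly6a* and *Zfp423* were over 2.5-fold lower with Ad-Cre (log2 ratios -2.65 and -1.69) and *Cd34* had a ratio of 1.03. Their part in the ratios of the subunits was not tested.

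*Pagr1a* had 541 reads (16.7 RPKM) with Ad-GFP and 1432 reads (56.2 RPKM) with Ad-Cre, a log2 ratio of 1.75 (1.61 to 1.90) or 3.37-fold, above 93.7% of expressed genes. No other subunit had a higher level with Ad-Cre. The ratio of *Pagr1a* to *Paxip1* RPKM was 1.44 with Ad-Cre at day 0 and 4.62 at day 2, against 1.57 and 0.856 with Ad-GFP. With the steps between the days divided by their trends, the day 2 values were 1.97 with Ad-Cre and 0.984 with Ad-GFP. *Kdm6a* had 1092 reads (9.02 RPKM) with Ad-GFP and 340 reads (3.58 RPKM) with Ad-Cre, a log2 ratio of -1.33 (-1.51 to -1.16), 2.52-fold lower and so barely past the cutoff, which its interval straddles. *Rbbp5*, with 1129 reads (13.5 RPKM) and 379 reads (5.79 RPKM), lay just short of it at a log2 ratio of -1.22 (-1.40 to -1.06).

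The other 5 subunits were lower by less. *Ncoa6* had 16.1 and 8.92 RPKM (log2 ratio -0.85, -0.95 to -0.75) and *Paxip1* 19.5 and 12.2 RPKM (log2 ratio -0.68, -0.78 to -0.57). The core genes *Wdr5* (30.3 and 25.6 RPKM, log2 ratio -0.24), *Dpy30* (18.0 and 14.8 RPKM, -0.28) and *Ash2l* (19.4 and 17.1 RPKM, -0.18) were closest to equal, within little of the -0.14 of all expressed genes. The fourth core gene, *Rbbp5* at -1.22, lay farther from 0 than *Ncoa6* and *Paxip1*, so the ratios did not part the core from the subunits found with MLL3 and MLL4.

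**Figure D3:**
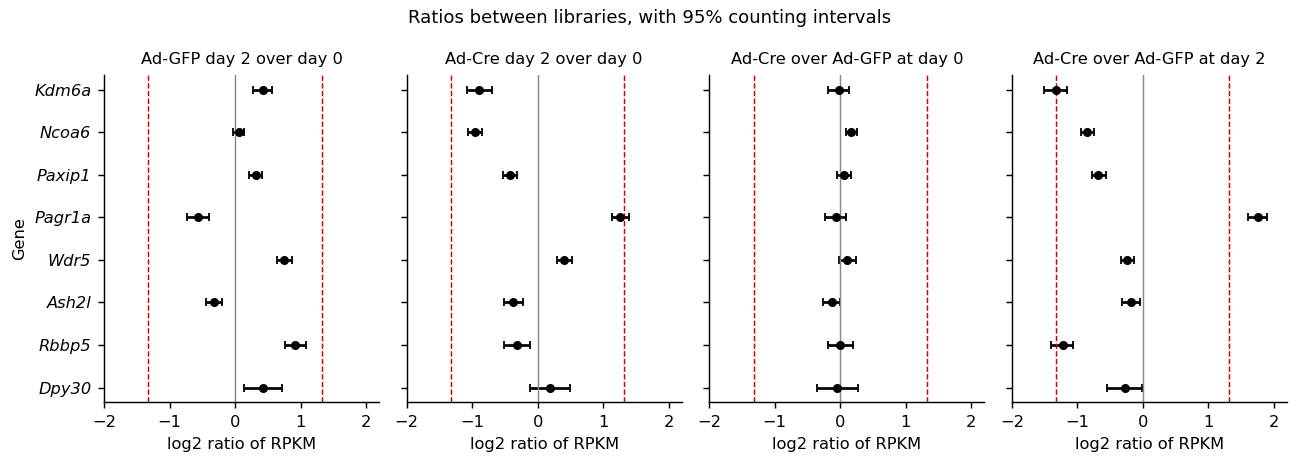
Log2 ratio of RPKM of each subunit in the 4 comparisons, with exact 95% counting intervals. Red dashed lines mark 2.5-fold. At day 0 all 8 lie between -0.13 and 0.17, whereas at day 2 *Pagr1a* lies at 1.75, past the upper line, and *Kdm6a* at -1.33, on the lower line.

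With both trends divided out, the ratio of *Pagr1a* at day 2 became 0.83 (0.69 to 0.98) or 1.78-fold, above 87.6% of expressed genes. That of *Kdm6a* became -0.61 (-0.79 to -0.44), that of *Ncoa6* -0.27 (-0.37 to -0.17) and that of *Paxip1* -0.24 (-0.34 to -0.13). *Rbbp5* came to -0.74 (-0.91 to -0.57) and *Dpy30*, among the shortest transcripts, to -0.74 (-1.01 to -0.47), while *Wdr5* came to -0.17 and *Ash2l* to 0.05 (-0.09 to 0.18). No subunit was then past 2.5-fold, against 6.58% of expressed genes upward and 7.01% downward. The median of the 8 was -0.25 (-0.16 over all expressed genes). Of the 8, 2 were above and 6 below 0, against 4534 and 6580 of the expressed genes. *Pagr1a* had the highest ratio before and after the division, and *Kdm6a* and *Rbbp5* were among the 3 lowest both times, joined after it by *Dpy30*, which had been at -0.28. With the planned division over length alone, *Pagr1a* was at 1.35, still past 2.5-fold, and *Dpy30* at -0.93.

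The steps from day 0 to day 2 had opposite signs between Ad-GFP and Ad-Cre for 5 of the 8 subunits, against 37.5% of expressed genes. The Ad-Cre minus Ad-GFP difference of the log2 ratios was 1.83 for *Pagr1a* (Wald interval 1.61 to 2.04) and -1.31 for *Kdm6a* (-1.55 to -1.08). It was -1.23 for *Rbbp5* (-1.48 to -0.98), -1.01 for *Ncoa6* (-1.15 to -0.88) and -0.74 for *Paxip1* (-0.88 to -0.59). *Wdr5* (-0.35) differed less, and the intervals of *Dpy30* (-0.23, -0.63 to 0.17) and *Ash2l* (-0.05, -0.23 to 0.13) hold 0. With the trends divided out, 4 of the 8 had opposite signs, against 31.8% of expressed genes. These were *Kdm6a*, *Ncoa6*, *Pagr1a* and *Dpy30*, and the difference of largest size was then that of *Dpy30* at -0.91, against -0.23 undivided. It was 0.80 for *Pagr1a*, -0.77 for *Rbbp5*, -0.58 for *Kdm6a*, -0.42 for *Ncoa6*, -0.34 for *Paxip1*, -0.29 for *Wdr5* and 0.11 for *Ash2l*.

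**Figure D4:**
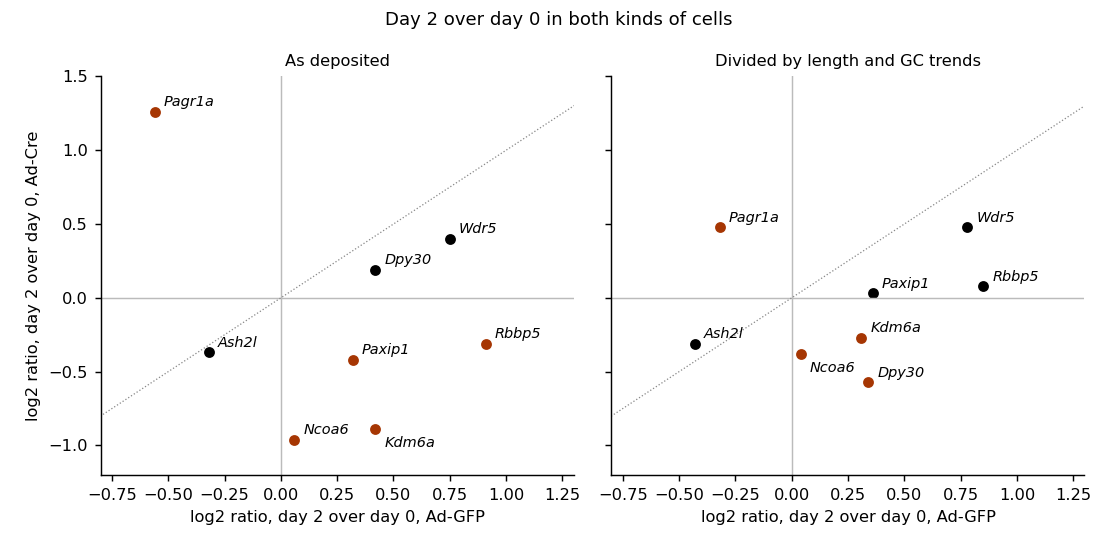
Log2 ratio of day 2 over day 0 with Ad-Cre (vertical) against that with Ad-GFP (horizontal) for the 8 subunits, from the deposited RPKM (left) and with both trends divided out (right). Orange points have opposite signs in the 2 kinds of cells, and the dotted line marks equal ratios. *Pagr1a* lies at -0.56 and 1.26 on the left and at -0.32 and 0.48 on the right, while *Paxip1* and *Rbbp5* move from below to just above 0 on the vertical axis.

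Several subunits have more than 1 transcript in the files, and their transcripts gave like Ad-Cre/Ad-GFP ratios at day 2. The 2 transcripts of *Ash2l* had 17.1 and 16.5 RPKM with Ad-Cre at day 2 and 19.4 and 18.6 RPKM with Ad-GFP. The shorter transcript of *Ncoa6* (NM_001242558, 3896 bases) went from 12.6 RPKM with Ad-GFP to 7.26 RPKM with Ad-Cre at day 2, beside 16.1 and 8.92 RPKM for the longer one (NM_019825). These 2 transcripts were less alike in the Ad-Cre/Ad-GFP log2 ratio at day 0, at 0.04 (shorter) and 0.17 (longer). In the step between the days with Ad-Cre they had log2 ratios of -0.77 and -0.96. The 4 transcripts of *Dpy30* share most of their bases and ran from 14.8 to 18.0 RPKM with Ad-GFP and from 11.4 to 14.8 RPKM with Ad-Cre at day 2. Since the transcripts of a gene share reads, these values are not separate measurements.

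Among the paralogs, *Kdm6b*, which codes for the demethylase JMJD3 and acts on the same histone mark as UTX, had 17.4 and 23.7 RPKM with Ad-GFP at day 0 and day 2, and 15.3 and 12.9 RPKM with Ad-Cre. Its Ad-Cre/Ad-GFP log2 ratio at day 2 was -0.87 (-0.96 to -0.79), and -1.13 with the trends divided out, so that both *Kdm6a* and *Kdm6b* were lower in that library. *Wdr5b*, a relative of *Wdr5*, had between 3.10 and 3.47 RPKM in the 4 libraries, with a log2 ratio of 0.02 (-0.37 to 0.41) at day 2, and 0.11 with the trends divided out.

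The subunits were set beside the genes they work with. Of all expressed genes, 55.8% had Ad-Cre/Ad-GFP log2 ratios below 0 at day 2. Past 2.5-fold were 9.59% upward and 9.88% downward. Of the 6 enzymes of the family, the 4 matched by symbol (*Kmt2b*, *Kmt2c*, *Kmt2d* and *Setd1a*) all had Ad-Cre/Ad-GFP log2 ratios below 0 at day 2, from -1.09 for *Kmt2c* to -0.19 for *Kmt2b* and none past 2.5-fold. With the trends divided out they lay between -0.45 and -0.24. Among them, *Kmt2c* is the gene knocked out in every library and *Kmt2d* the gene targeted by Cre. Reads of *Kmt2c*, and of *Kmt2d* with Ad-Cre, thus come from altered genes. Of 8 subunits of other complexes of the family, 4 had ratios above and 4 below 0, with a median of 0.04 and none past 2.5-fold. *Men1* (menin, a partner of MLL1 and MLL2) had a log2 ratio of 0.72 and *Cxxc1* (CFP1, a partner of SET1A and SET1B) of 0.49, whereas *Hcfc1* and *Hcfc2*, host cell factors, had ratios of -1.08 and -1.28. With the trends divided out, *Men1* came to 0.23, *Cxxc1* to -0.05 (-0.13 to 0.04), *Hcfc1* to -0.84 and *Hcfc2* to -0.90. Of 8 coactivators, among them *Ncoa1*, *Ncoa2*, *Ncoa3*, *Med1* and *Ep300*, all 8 had ratios below 0, with a median of -0.71, a range from -1.09 to -0.01 and none past 2.5-fold, although *Crebbp* (-0.01) and *Carm1* (-0.06) stood above the -0.14 of all expressed genes. This median became -0.37 with the trends divided out (-0.16 over all expressed genes), and 1 of the 8 was then above 0. Of 4 genes that act with PTIP in DNA repair (*Trp53bp1*, *Rif1*, *Mdc1* and *Atm*), all 4 had ratios below 0, with a median of -0.85, and *Atm* was past 2.5-fold at -1.55. With the trends divided out the median was -0.19, against -0.16 over all expressed genes, and none was past 2.5-fold. At day 0 none of these lists held a gene past 2.5-fold, with medians between -0.08 and 0.00. From day 0 to day 2, *Ncoa1* in Ad-GFP cells was the only gene of these lists past 2.5-fold, at a log2 ratio of 1.37. With the trends divided out it was past it with Ad-Cre too, at 1.34.

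**Figure D5:**
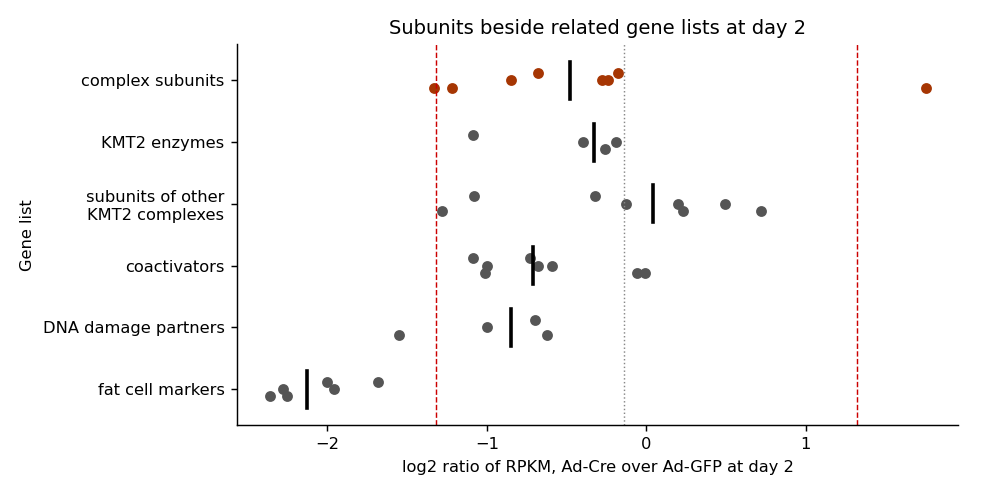
Log2 ratio Ad-Cre/Ad-GFP at day 2 for the subunits (orange) and for related gene lists (grey). Each point is a gene, black bars are list medians, the dotted line is the median of all expressed genes (-0.14) and red dashed lines mark 2.5-fold. Subunits spread from -1.33 to 1.75, and only the fat cell markers lie wholly past the lower line.

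The 3 genes with the pattern most like that of *Pagr1a*, the subunit with the widest range, were *Kcnab2*, *Iffo1* and *Mypop*. Likeness was the Euclidean distance of log2 RPKM over the 4 libraries, each gene centred on its own mean, among 8621 expressed genes with at least 100 reads in every library, and the distances were 0.13, 0.13 and 0.15. *Iffo1* had 10.9 and 11.2 RPKM at day 0 (Ad-GFP, Ad-Cre) and 8.38 and 26.2 RPKM at day 2, and *Mypop* 11.7 and 12.7, and 8.82 and 27.6 RPKM. The transcripts of *Kcnab2*, *Iffo1* and *Mypop* have GC contents of 57.4%, 58.9% and 63.9%, near or above the 58.9% of *Pagr1a*. Their exon lengths of 3562, 2840 and 2175 bases are all above the 1412 bases of *Pagr1a*. The Ad-Cre library of day 2 had trends over both properties, and the part of these trends in the likeness was not tested.

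The 250 bases upstream of a RefSeq start of each gene, from promoter windows of GRCm38.p6, were searched on both strands for 6 short motifs. A window was given for 7 of the 8 subunits, not for *Ash2l*, the first window listed was used, and its 250 bases were found unchanged in NCBI37/mm9. Those of *Ncoa6* (chr2:155266520-155266769) and *Pagr1a* (chr7:134160867-134161116) lie inside the annotated genes, so the search did not reach the outermost annotated starts of these genes. *Pagr1a* and *Paxip1*, whose products bind each other, both hold GCGCATGC, part of the palindrome that the factor NRF1 is known to bind. It was found in 2.32% of 27025 promoter windows and in none of the other 5 subunits. The stretches are printed in the direction of the gene, with the motif or the palindrome of overlapping motifs in capitals.
Pagr1a, chr7:134160963-134160992, minus strand: gaacggaatacGCATGCGCtgccgcagtgg
Pagr1a, chr7:134160897-134160926, minus strand: gggccaaattGCGCATGCGCaagtcttctc
Paxip1, chr5:28118248-28118277, minus strand: cgcctccttgGCGCATGCGCtgtcaggtgg
In *Pagr1a* the capitals lie 108 to 115 and 41 to 50 bases before the start, and in *Paxip1* 168 to 177 bases before it. *Kdm6a* alone of the 7 holds the E-box CACGTG, 22 to 27 bases before the start, which 6.05% of the windows hold.
Kdm6a, chrX:17739662-17739691, plus strand: gtcaacaaaggtCACGTGaggcgaggggct
CCGGAA (12.2% of windows) and TGACGT (6.56%) were found in none of the 7, CCAAT (34.5%) in *Dpy30* alone, and GGGCGG (32.9%) in *Kdm6a*, *Paxip1* and *Wdr5*. These matches describe the sequence only, and binding at them was not measured here.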

How the data were processed

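One library per condition was analysed. Per the study's methods, the authors used the Illumina Analysis Pipeline, mapped the 50-base reads to NCBI37/mm9 and collected those on RefSeq exons. They deposited a read count and an RPKM for each of 29082 transcripts. The submitters' processing notes list bedtools 2.16 and SICER 1.1. The strand setting is not given in the sources used here.

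Mapped reads and exon lengths were recovered from the deposited count and RPKM columns, with lengths whole to within 0.0001 bases for 100% of transcripts with reads. Symbols came from a RefSeq table of GRCm38.p6, used for names, and the transcript with most reads stands for a symbol. Ratios of the authors' RPKM had no pseudocount, and those over 0 reads counted as past 2.5-fold. No test was run. The trends were medians of 20 bins of exon length and of GC content (GENCODE vM1, found for 93.9% of expressed genes and for all 8 subunits), fitted in 5 rounds. The intervals (95%) and the division were run on simulated Poisson counts with a planted trend. Since the intervals assume such counts, this checks the computation only and not the spread between real libraries. For *Pagr1a*, the exons after its RefSeq start were used, 1430 bases against 1412 in the files. Tools were scipy 1.17.1, numpy 2.4.6 and pandas 2.3.3 in Python 3.11.15, matplotlib 3.10.9, blastn 2.17.0, and edgeR 4.0.16 in R 4.3.3 for TMM factors.

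The genes named are the 8 subunits, the genes of the lists and the 3 genes nearest in pattern to the subunit with the widest range. The subunits and lists were chosen with earlier results of these data known. *Kmt2a* and *Setd1b* were not analysed here. Of the alternatives, 11 were planned and 2, the GC trend and the joint trend, were added after seeing the data.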

Additional observations from a re-analysis of the deposited data

Results flagged for a closer look

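The step from day 0 to day 2 had opposite signs in Ad-GFP and Ad-Cre cells for 5 of the 8 subunits, against 37.5% of expressed genes. These 5 were drawn out for a closer look. The Ad-Cre minus Ad-GFP difference of the log2 ratios was -1.31 for *Kdm6a*, -1.01 for *Ncoa6*, -0.74 for *Paxip1*, 1.83 for *Pagr1a* and -1.23 for *Rbbp5*. With 1 library per condition the difference was not tested. The Ad-GFP ratio of *Ncoa6* has an interval that holds 0, so that its sign is not settled even within counting error, and both intervals lie off 0 for the other 4. With the trends over length and GC content divided out, the signs of *Paxip1* and *Rbbp5* were the same in both kinds of cells. Those of *Dpy30* then became opposite (0.34 with Ad-GFP and -0.57 with Ad-Cre). After the division 4 of the 8 subunits had opposite signs, against 31.8% of expressed genes.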

How the results depend on the processing

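The count of subunits past 2.5-fold between Ad-Cre and Ad-GFP at day 2 went from 2 to 1 with TMM factors, the sum of deposited counts as denominator, the median of expressed genes subtracted, 1 RPKM added, the length trend divided out or the interval required to pass the cutoff, and to 0 with the GC trend or both trends divided out. The median of the subunits there went from -0.48 to -0.32 with TMM factors, -0.35 with summed counts, -0.34 with the median subtracted, -0.27 with the length trend and -0.25 with both trends divided out. With a cutoff of 1.5-fold, 5 subunits were past it at day 2, and between the days 2 (Ad-GFP) and 3 (Ad-Cre). In Ad-Cre cells, between these days, 1 was past 2.5-fold with summed counts and 1 past 2-fold, and the median of -0.34 became -0.16 with summed counts, -0.17 with the length trend and -0.12 with both trends divided out. For the cutoffs of 1.5-fold and 2-fold, and for most of these settings, no share of expressed genes is given here. Those counts of subunits therefore cannot be set against all expressed genes. The share of expressed genes past 2.5-fold at day 0 was 9.70% with no filter on low values. TMM factors moved the median of all expressed genes at day 2 from -0.14 to 0.02. Of 32 subunit ratios, 6 changed sign with both trends divided out, 4 with the length trend, 2 with the GC trend and 1 with TMM factors. No paired analysis was possible because the labels give no replicate numbers and every condition has 1 library. Depth limits *Dpy30* most, with 164 to 294 reads.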
